A study of Mus musculus with 25 samples.

Results

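Destabilization of the medial meniscus (DMM) and sham surgery were compared 4 weeks after the operation, when osteoarthritis of the mouse knee is at an early stage. The comparison rests on 6 of the study's 25 arrays, the 3 labelled DMM at 4 weeks and the 3 labelled sham at 4 weeks, and covers all 20260 genes that were bright enough to test. In DMM a ligament that anchors the medial meniscus is cut, so that the joint becomes unstable and its cartilage wears. Sham mice had surgery without that lesion, and they are the controls for the surgery itself. All mice were male C57BL/6 and carried no genetic change. Surgery was on the right knee when the mice were 10 weeks old, and DMM and sham mice alike were 14 weeks old when tissue was taken. Untreated (naive) mice of 14 weeks, also 3 arrays, are set beside them, and 6 separate arrays of DMM and sham mice at 16 weeks after surgery serve as a second look. The labels do not say how many mice an array holds, from which side the ganglia came, what the sham operation included or at what time of day tissue was taken.

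Lumbar dorsal root ganglia at levels L3 to L5 house the sensory neurons of the hind limb, those of the knee included. Each neuron is wrapped by satellite glia, and the ganglion also holds Schwann cells, vessels, a fibrous capsule and resident macrophages. In this tissue the genes that are known to answer joint damage or nerve injury include those of nociceptor peptides and ion channels, of injury transcription factors such as Atf3, and of macrophages and their chemokines. A pair of other programs reacts within hours in almost any cell. The circadian clock is a feedback loop in which BMAL1 (gene Arntl) and CLOCK switch on the Per, Cry and Nr1d genes, whose products then repress them. Immediate early genes such as Egr1, Fos and Ier2 are transcribed within minutes of a stimulus and fade quickly.

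Values are log2 intensities, so 1 unit is a doubling of signal. Array medians lay between 4.88 and 4.97 over all 25 arrays, negative control probe sets had medians between 5.06 and 5.35 and background probe sets between 3.31 and 3.58. A gene was tested when its mean was above 4.52, so some tested genes are no brighter than the negative controls. The 15 sensory neuron markers averaged between 15.2 and 15.3 on the DMM arrays and stood at 15.3 on each sham array, far above the other lists. Markers of skeletal muscle averaged between 5.09 and 5.13 on the DMM arrays and between 5.05 and 5.44 on the sham arrays, and those of bone and cartilage between 5.59 and 5.62 and between 5.47 and 5.62, all close to the negative controls. Errors beside a mean are SD over 3 arrays and errors beside a difference are standard errors.

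Between DMM and sham ganglia at 4 weeks, no gene passed an adjusted p of 0.05 in limma (0 of 20260, 0.0%). The smallest adjusted p was 0.0864, shared by the clock gene Arntl and by the pseudogene Gm12803, which was named after its values were seen. Of the 20260 genes, 10908 read higher in DMM and 9352 lower. At an unadjusted p under 0.05 there were 949 genes, against 1013 that a uniform p would give. Of these, 633 were higher in DMM (3.12% of the genes tested) and 316 lower (1.56%). That split depends on the scale. Higher genes made up 66.7% of the 949 with the deposited values, 47.8% after quantile normalization (486 higher, 530 lower), 53.6% after cyclic loess and 54.1% with arrays centred on their medians. Differences were small throughout. The median size was 0.07 on the log2 scale, 135 genes differed by 0.5 or more and 8 by 1 or more. In 1611 genes all 3 DMM arrays lay above all 3 sham arrays (7.95%), and in 741 all lay below (3.66%). The named genes below are therefore described by their values, since none passed the adjusted test. Gene lists and their members were chosen with earlier results of these data known. Their counts, set beside the share of all genes tested, describe the lists and do not test them.

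**Figure D1:**
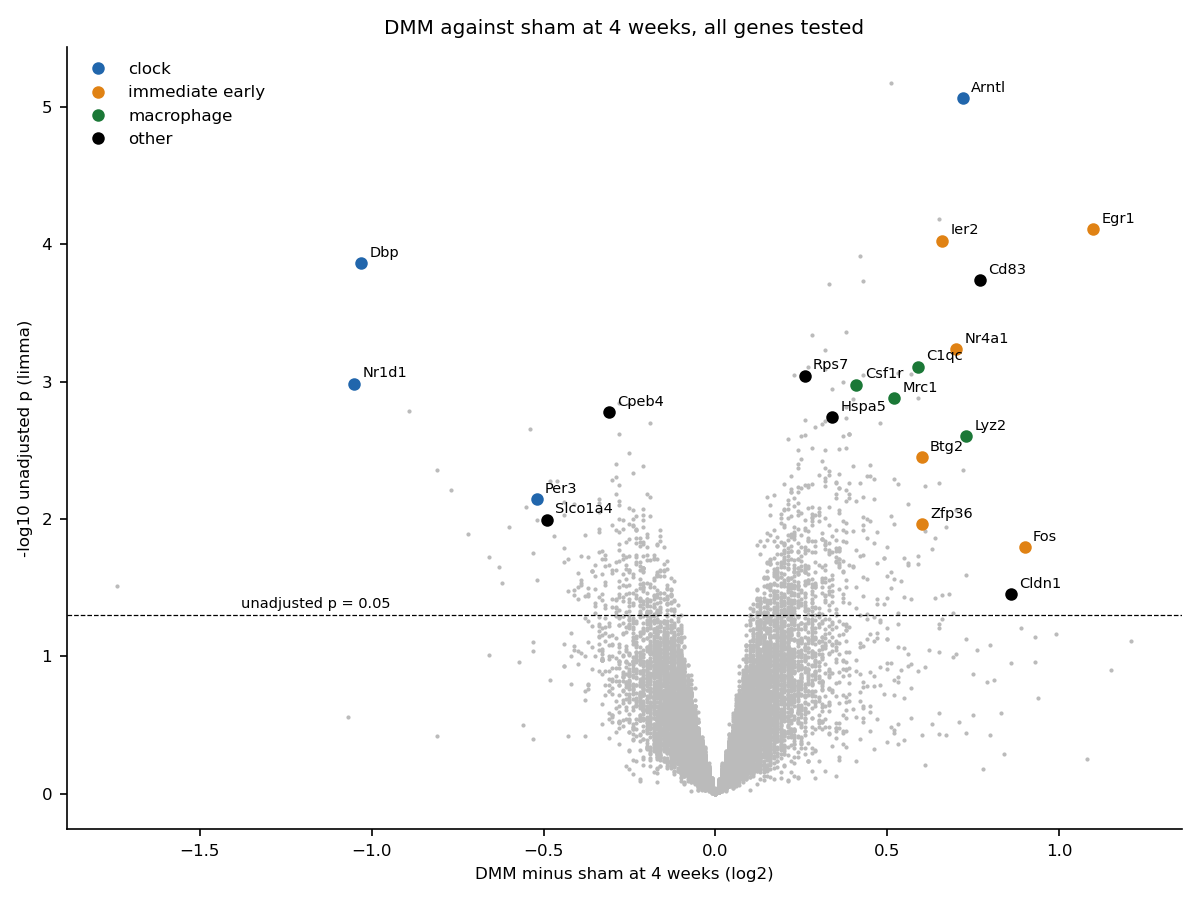
Difference between DMM and sham arrays at 4 weeks for the 20260 genes tested (x axis, log2) against −log10 of limma's unadjusted p (y axis), with 3 arrays a group and the dashed line at an unadjusted p of 0.05. Clock genes lie on both sides, immediate early and macrophage genes on the right, and no gene passed an adjusted p of 0.05.

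Clock genes of opposite roles differed in opposite directions. Arntl encodes BMAL1, the activator of the loop. It read 7.50, 7.24 and 7.15 on the DMM arrays, against 6.69, 6.52 and 6.52 on the sham arrays. All DMM arrays lay above all sham arrays, and the naive arrays, at 6.18, 6.26 and 6.62, reached no higher than the sham arrays did. The difference was 0.72 ± 0.12, or 1.65-fold (limma adjusted p = 0.0864). Clock, the partner of BMAL1, read 13.18, 13.06 and 13.19 in DMM against 13.00, 12.99 and 12.94 in sham ganglia, a difference of 0.16 ± 0.06 (limma adjusted p = 0.986) with no overlap.

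Genes that BMAL1 switches on stood on the other side. Dbp, a transcription factor driven by the clock, read 7.67, 7.95 and 8.05 in DMM ganglia, against 8.64, 8.87 and 9.25 in sham ganglia. The groups did not overlap, and the naive arrays were higher still at 9.39, 9.88 and 9.39. The difference between DMM and sham was -1.03 ± 0.22, or 0.490-fold (limma adjusted p = 0.392). Nr1d1, the repressor REV-ERB alpha that shuts off Arntl, read 7.85, 8.27 and 8.27 in DMM against 8.95, 9.28 and 9.33 in sham ganglia. The groups were again apart, with a difference of -1.05 ± 0.27 (limma adjusted p = 0.85). Per3, a member of the Period family, read 6.03, 6.22 and 6.18 in DMM against 6.48, 6.62 and 6.89 in sham ganglia, and it too showed no overlap, at -0.52 ± 0.17 (limma adjusted p = 0.986).

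The rest of the loop was flatter. Of the 15 core clock genes tested, 4 were higher and 11 lower in DMM, with 2 higher and 3 lower at an unadjusted p under 0.05, against 3.12% and 1.56% of all genes tested. The median difference was -0.11, against 0.01 over all genes tested. The last of these genes was the repressor Cry2, at -0.21 ± 0.10 with overlapping arrays. Per2 differed by -0.24 ± 0.13, Nr1d2 by -0.31 ± 0.18 and Per1 by -0.10 ± 0.19, all with overlap. Of 12 clock output genes tested, 6 were higher and 6 lower, and 2 were lower at an unadjusted p under 0.05, against 1.56% of all genes tested. They were Dbp and the glucocorticoid-responsive factor Klf9, which differed by -0.23 ± 0.09 with overlapping arrays. Hlf and Tef, which belong to the same bZIP family as Dbp, differed by -0.03 ± 0.33 and -0.12 ± 0.14. These genes cycle with the time of day, which the labels do not give, and its part was not tested.

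Promoter sequence gives the context of 3 of the clock genes that differed most. The windows are RefSeq's on GRCm38.p6, from 250 bases before to 50 after the start site, and were searched on both strands for the E-box CACGTG (bound by BMAL1 and CLOCK), the D-box TTATGNAA (bound by DBP and its relatives) and the element TAGGTCA (bound by ROR and REV-ERB factors). Letters in capitals are matches, on the strand of the gene. The 3 are shown because they stand for the activator that was high in DMM and for a pair of genes that were low:
Arntl, chr7:113207261-113207560, plus strand: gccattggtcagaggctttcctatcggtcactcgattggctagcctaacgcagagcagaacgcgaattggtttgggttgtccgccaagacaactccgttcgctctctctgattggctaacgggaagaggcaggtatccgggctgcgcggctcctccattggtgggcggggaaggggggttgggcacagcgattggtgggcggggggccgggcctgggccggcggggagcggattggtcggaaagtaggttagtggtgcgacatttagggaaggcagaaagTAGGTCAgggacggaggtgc
Per3, chr4:151044616-151044915, minus strand: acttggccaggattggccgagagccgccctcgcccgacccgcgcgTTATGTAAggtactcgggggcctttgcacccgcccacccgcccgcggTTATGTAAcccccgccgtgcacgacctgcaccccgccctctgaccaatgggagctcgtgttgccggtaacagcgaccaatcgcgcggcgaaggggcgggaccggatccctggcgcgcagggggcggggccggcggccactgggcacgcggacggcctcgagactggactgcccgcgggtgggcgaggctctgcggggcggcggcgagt
Dbp, chr7:45704997-45705296, plus strand: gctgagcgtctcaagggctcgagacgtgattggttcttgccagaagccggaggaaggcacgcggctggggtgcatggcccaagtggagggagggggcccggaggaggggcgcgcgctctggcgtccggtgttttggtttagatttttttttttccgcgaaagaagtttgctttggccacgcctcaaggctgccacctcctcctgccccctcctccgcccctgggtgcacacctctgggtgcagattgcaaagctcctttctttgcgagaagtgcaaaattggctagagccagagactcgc

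RefSeq gives Arntl 2 windows, from start sites close to each other. The one shown holds 1 TAGGTCA element 30 bases after its start site and the other holds none of the 3 motifs. The Per3 window holds 2 D-boxes, starting 205 and 158 bases before its start site, and the Dbp window holds none of the 3 motifs. The window of Nr1d1, which differed more than Per3, is not shown and holds none of them either. Over 32851 RefSeq promoter windows of this length, an E-box occurs in 7.15%, a D-box in 3.38% and TAGGTCA in 2.61%. Of the 27 clock and output genes tested, 23 have a window, 35 windows in all. An E-box occurs in 6 of the 35 windows (of Per1, Cry1, Bhlhe41, Cipc and 2 of Tef), and in none of those of Dbp, Nr1d1 and Per3. A D-box occurs in 2 (of Per1 and Per3) and TAGGTCA in 2 (of Arntl and Nfil3). These are matches of letters and not measured binding.

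**Figure D2:**
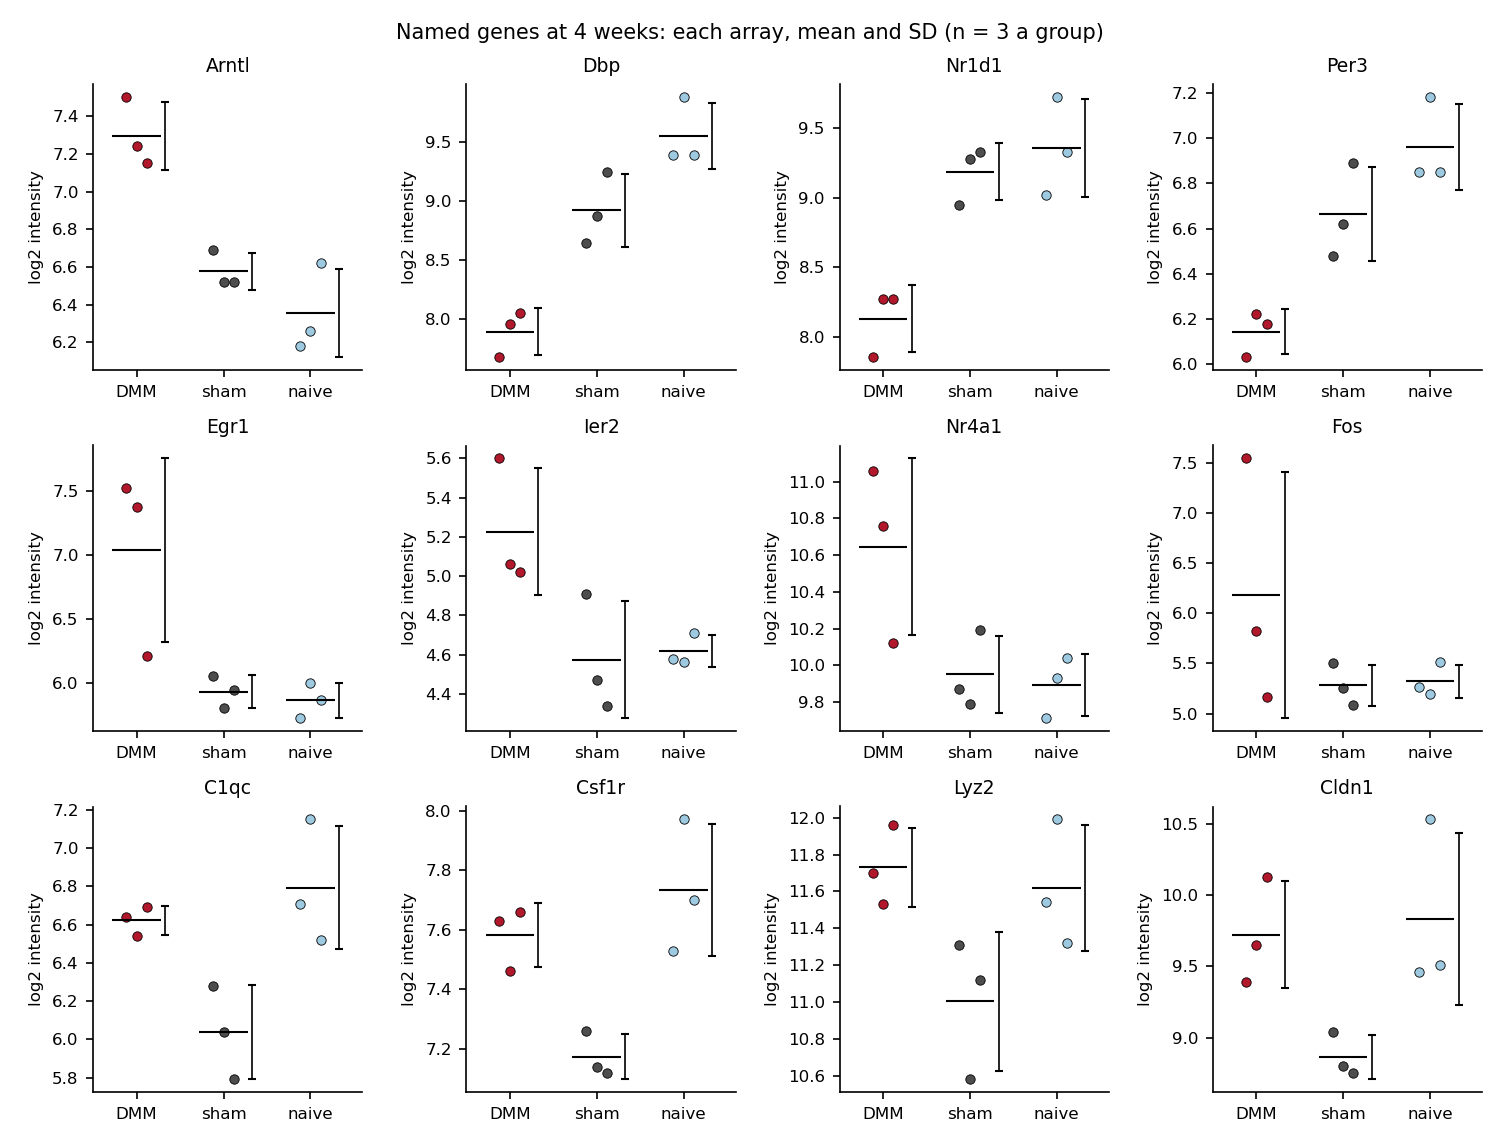
Log2 intensity of 12 genes on each array at 4 weeks (points), in DMM, sham and naive ganglia from left to right, with the mean as a line and the SD as a bar beside it (n = 3 a group). Arntl and Dbp show 3 DMM arrays apart from 3 sham arrays. Egr1 and Nr4a1 show 1 DMM array near sham, and Fos shows only DMM array 1 far above sham. The macrophage genes show DMM arrays near naive and sham arrays below both.

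Immediate early genes were high on 2 of the 3 DMM arrays. Egr1, a zinc finger factor of the early response, read 7.52, 7.37 and 6.21 on DMM arrays 1, 2 and 3, against 6.05, 5.80 and 5.94 on the sham arrays. DMM array 3 lay just above the highest sham array, and the naive arrays, between 5.72 and 6.00, lay with sham. The difference was 1.10 ± 0.22, or 2.14-fold (limma adjusted p = 0.38). Ier2 read 5.60, 5.06 and 5.02 in DMM against 4.91, 4.47 and 4.34 in sham ganglia, a difference of 0.66 ± 0.13 (limma adjusted p = 0.38) with no overlap. Only DMM array 1 exceeded its own negative control median for Ier2, so the size of this difference is uncertain.

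The nuclear receptor Nr4a1, an early gene of excitable cells, read 11.06, 10.76 and 10.12 in DMM against 9.87, 9.79 and 10.19 in sham ganglia. DMM array 3 fell within the sham range, and the difference was 0.70 ± 0.17 (limma adjusted p = 0.831). Fos, a subunit of the AP-1 factor, showed the widest spread, with 7.54, 5.82 and 5.17 in DMM against 5.50, 5.25 and 5.09 in sham ganglia. DMM array 1 alone was far above sham, and the difference was 0.90 ± 0.34. Btg2, a brake on proliferation, differed by 0.60 ± 0.18, Zfp36, which speeds the decay of cytokine mRNAs, by 0.60 ± 0.21, Egr3 by 0.43 ± 0.14 and the AP-1 member Fosl2 by 0.42 ± 0.13.

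As a group, 18 of the 20 immediate early genes tested were higher in DMM and 10 of 20 had an unadjusted p under 0.05, against 3.12% of all genes tested. The median difference was 0.36, and it lay between 0.22 and 0.49 over all other settings. The mean of the list was 7.52, 7.23 and 6.79 on DMM arrays 1, 2 and 3, against 6.93, 6.70 and 6.74 on the sham arrays, and 6.87, 6.83 and 6.94 on the naive arrays. DMM array 3 thus lay inside the sham range, and the naive arrays showed no elevation. Not all members took part: Jun differed by -0.16 ± 0.24, Arc by 0.06 ± 0.10, Egr2 by 0.10 ± 0.12 and Nr4a2 by 0.04 ± 0.12.

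In the fit without DMM array 3, Egr1 differed by 1.51 ± 0.13 (limma adjusted p = 2.43e-05) and Nr4a1 by 0.96 ± 0.14 (limma adjusted p = 0.0144), the only genes past the threshold in that fit. DMM array 3 held the lowest DMM values of both genes, so leaving it out enlarges their differences. Over the 18 other settings, Egr1 differed by 0.86 to 1.51 and Nr4a1 by 0.49 to 0.96. Both also passed with array weights, and in no further setting. Without DMM array 1, 5 of the 20 list members had an unadjusted p under 0.05. DMM array 1 also held the highest values of the heat shock gene Hspa1a, at 6.89 against 5.66 and 5.49 on the other DMM arrays and 5.51 to 5.83 on the sham arrays. On the same array Cxcl9, an interferon-induced chemokine, stood at 8.21 against 4.64 and 4.12 on the other DMM arrays and 4.27 to 5.49 on the sham arrays. The DMM arrays thus differed among themselves in these genes, and what moved with DMM array 1 was not tested.

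Macrophage genes read higher in DMM than in sham ganglia, and the sham arrays were low beside naive ones too. C1qc, a chain of the complement starter C1q made by macrophages, read 6.64, 6.54 and 6.69 in DMM against 6.28, 6.04 and 5.79 in sham ganglia. The naive arrays stood at 6.71, 7.15 and 6.52, so it was the sham arrays that lay apart from the other groups. The difference between DMM and sham was 0.59 ± 0.15 (limma adjusted p = 0.831). Csf1r, the receptor for the macrophage growth factor, read 7.63, 7.46 and 7.66 in DMM against 7.26, 7.14 and 7.12 in sham ganglia and 7.53, 7.97 and 7.70 in naive ganglia. It followed the same order, with a difference of 0.41 ± 0.11 (limma adjusted p = 0.85). Sham minus naive, in contrast, passed the adjusted test for both genes. It was -0.76 ± 0.15 for C1qc and -0.56 ± 0.11 for Csf1r (limma adjusted p = 0.0411 for each).

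Mrc1, the mannose receptor of tissue-resident macrophages, differed by 0.52 ± 0.14, the lysosomal protein gene Cd68 by 0.38 ± 0.13 and Lyz2, the myeloid lysozyme, by 0.73 ± 0.21, all with no overlap. Lyz1 differed by 0.57 ± 0.15, but Lyz1 and Lyz2 are near-identical copies, and whether their probes share signal was not tested. Ccr2, the receptor that draws monocytes to CCL2 and is needed for pain behaviour after DMM in mice, read 5.72, 5.50 and 6.25 in DMM against 5.57, 5.18 and 5.39 in sham ganglia, a difference of 0.45 ± 0.16 with overlapping arrays.

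Of 19 macrophage markers tested, 18 were higher in DMM, 10 had an unadjusted p under 0.05 and 10 did not overlap, against 3.12% and 7.95% of all genes tested. The median difference was 0.36, between 0.27 and 0.44 over the other settings. The list's mean was 7.05, 7.01 and 7.15 on the DMM arrays, 6.91, 6.61 and 6.71 on the sham arrays, and 7.17, 7.41 and 7.13 on the naive arrays. The DMM mean thus lay between the sham and naive means, with DMM and naive arrays overlapping, and the median difference of sham from naive was -0.51 while that of DMM from naive was -0.14. Sham minus naive also passed for Mrc1 and Cd68, at -0.71 and -0.74 (limma adjusted p = 0.0411 for each). It did not pass for Lyz2, Ccr2, C1qa and C1qb. These comparisons share arrays, so they are given side by side only. Without sham array 2, the lowest, 6 of the 19 had an unadjusted p under 0.05. In whole ganglia, more macrophages and more RNA per macrophage cannot be told apart. Aif1, Cx3cr1 and Lyve1, at 0.07 ± 0.10, 0.11 ± 0.15 and -0.17 ± 0.27, overlapped between the groups.

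Immune genes related to macrophages went the same way. All 8 class II antigen presentation genes tested were higher in DMM, 4 at an unadjusted p under 0.05, against 3.12% of all genes tested, with a median of 0.30. H2-Ab1, a chain of the class II molecule, read 10.71, 10.33 and 10.92 in DMM against 10.21, 9.58 and 10.01 in sham ganglia, with no overlap and a difference of 0.72 ± 0.22 (limma adjusted p = 0.986). Its naive arrays stood at 10.38, 10.92 and 10.34, within the DMM range. Without sham array 2 only 1 of the 8 had an unadjusted p under 0.05. Cd83, a surface protein of mature dendritic cells, was even on the DMM arrays at 5.66, 5.63 and 5.59, against 4.65, 5.20 and 4.72 on the sham arrays. Its difference was 0.77 ± 0.17 (limma adjusted p = 0.392), and the naive arrays read 5.45, 5.25 and 5.06. Sham arrays 1 and 3 lay below their own negative control medians of 5.07 and 5.21 for Cd83, so the size of this difference is uncertain. Of 15 complement genes, 13 were higher and 4 had an unadjusted p under 0.05, against 3.12% of all genes tested. They were the 3 C1q chains and C1ra, and the count was 1 without sham array 2 or without DMM array 2. The class II and complement lists had medians of -0.41 and -0.30 for sham minus naive. For DMM minus naive their medians were 0.01 and -0.07. Plbd1, a lysosomal phospholipase-like protein of myeloid cells, differed by 0.43 ± 0.11, and Tlr8, a receptor for single-stranded RNA, by 0.38 ± 0.11, both with no overlap.

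The remaining immune lists had medians of 0.11 or less, except the mast cell markers, which are described below. Of 25 interferon-stimulated genes and of 24 cytokines and their receptors, 0 had an unadjusted p under 0.05, with medians of 0.07 and 0.05. Of 24 chemokines and receptors, 17 were higher, with a median of 0.11. Ccr2 alone had an unadjusted p under 0.05, against 3.12% of all genes tested. The count of higher genes at that p was 0 without sham array 2 and 3 with the 6 arrays alone. Of 21 Toll-like receptors, alarmins and pattern receptors, 17 were higher and 2 had an unadjusted p under 0.05 (against 3.12% of all genes tested), Tlr8 and Tlr9, which both sense nucleic acids, with a median of 0.10. Markers of T and NK cells averaged between 4.82 and 4.93 on the DMM arrays and between 4.73 and 4.91 on the sham arrays, near the negative controls, with 3 of 14 bright enough to test. Neutrophil markers had a median of -0.04. Their brightest member S100a8, an alarmin, ranged widely in both groups, with 6.81, 7.27 and 8.25 in DMM against 8.34, 7.61 and 6.52 in sham ganglia.

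Genes of connective tissue were also mostly higher in DMM. Of 29 collagen and matrix genes, 27 were higher and 15 did not overlap, against 7.95% of all genes tested. An unadjusted p under 0.05 was reached by 3, against 3.12% of all genes tested. The median was 0.21. Dcn, a small proteoglycan that binds collagen, read 15.62, 15.70 and 16.03 in DMM against 15.09, 15.14 and 15.22 in sham ganglia. Its groups were apart and the difference was 0.64 ± 0.28, with naive arrays at 15.49, 16.05 and 15.52. The proteoglycan Lum differed by 0.66 ± 0.29 and the basement membrane collagen Col15a1 by 0.27 ± 0.09. Thbs1, a matrix protein that activates TGF-beta, had the largest difference of the list, at 1.15 ± 0.72, with no overlap at 4 weeks. Its unadjusted p was 0.126 in the limma fit, whose spread comes from all groups of more than 1 array. With the spread estimated from the 6 arrays alone, 14 of the 29 had an unadjusted p under 0.05, and in that fit 910 of all 20260 genes were higher at that p, against 633 in the fit of all arrays.

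Among enzymes that cut matrix, Adamts1 differed by 0.56 ± 0.22, the membrane-bound collagenase Mmp14 by 0.41 ± 0.18 and Adamts12 by 0.36 ± 0.14, and these were the 3 of 16 at an unadjusted p under 0.05, against 3.12% of all genes tested. The count was 0 without sham array 2 and 1 without DMM array 1 or sham array 3. P3h4, which takes part in collagen modification, differed by 0.34 ± 0.09 with no overlap.

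Markers of fibroblasts and meninges, which cover the ganglion and its root, had the highest median of all lists, at 0.61, and all 18 tested were higher in DMM. Their list mean was 8.73, 8.58 and 9.37 on DMM arrays 1, 2 and 3, against 8.38, 7.95 and 8.79 on the sham arrays and 9.03, 8.57 and 9.28 on the naive arrays. The groups overlapped, and 2 of the 18 had an unadjusted p under 0.05, against 3.12% of all genes tested. The count was 0 without DMM array 3 and 1 without sham array 1 or sham array 3. Ptgds, the meningeal prostaglandin D synthase, ranged from 11.45 to 13.87 in DMM and from 8.92 to 13.88 in sham ganglia. The median was 0.29 without DMM array 3 and again 0.29 without sham array 2. Markers of these coverings move with the collagen list, and their part in it was not tested. Of 9 perineurial markers, 6 were higher and 3 lower. In 5 of them all DMM arrays lay above all sham arrays, against 7.95% of all genes tested. Only 1 had an unadjusted p under 0.05, against 3.12% of all genes tested. This was Cldn1, a tight junction protein, which read 9.39, 9.65 and 10.13 in DMM against 9.04, 8.80 and 8.75 in sham ganglia, with no overlap and a difference of 0.86 ± 0.38. The naive arrays reached 10.53, above the DMM arrays. The perineurial count at that p was 0 without DMM array 3, sham array 2 or sham array 3, and 4 with the 6 arrays alone. Of 7 mast cell markers, 4 were higher and 3 lower. Their median was 0.52, and it lay between 0.09 and 0.76 over the other settings. The 4 higher ones did not overlap, against 7.95% of all genes tested. The protease Cma1, at 0.52 ± 0.22, was the 1 with an unadjusted p under 0.05, against 3.12% of all genes tested. The mast cell count was likewise 0 without DMM array 3, sham array 2 or sham array 3, and 4 with the 6 arrays alone. Cpa3, another protease, read 8.78, 9.26 and 10.20 in DMM against 8.55, 7.71 and 8.37 in sham ganglia.

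**Figure D3:**
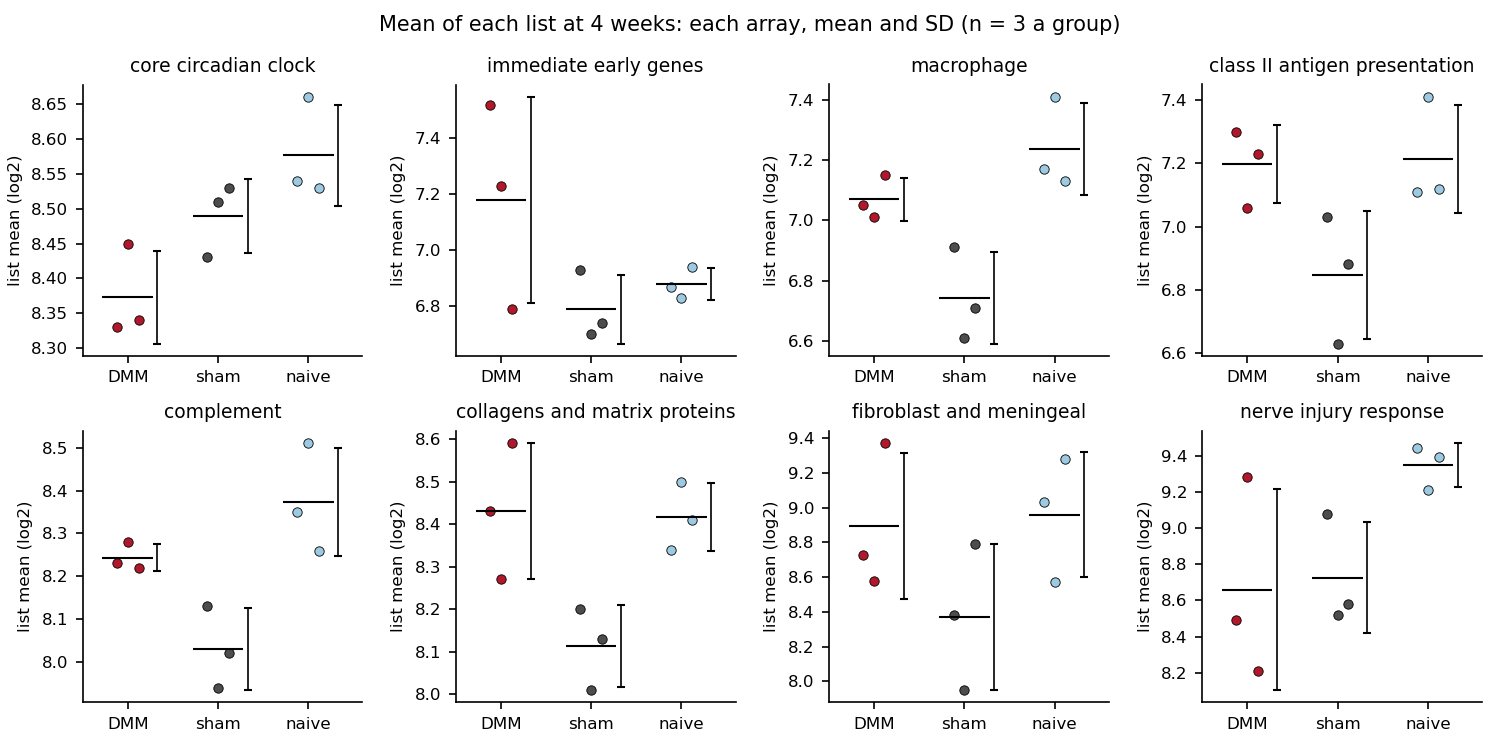
Mean log2 intensity of 8 gene lists on each array at 4 weeks (points), in DMM, sham and naive ganglia from left to right, with the mean as a line and the SD as a bar (n = 3 a group). DMM array 1 stands highest for immediate early genes at 7.52, and for the macrophage, class II, complement and collagen lists all DMM arrays lie above all sham arrays, with the naive arrays among or above the DMM arrays.

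Neuronal genes did not separate DMM from sham ganglia. Of 12 voltage-gated sodium channel genes, 3 were higher and 9 lower, of 25 potassium and HCN channel genes 3 and 22, and of 15 calcium channel genes 1 and 14, and 0 of them had an unadjusted p under 0.05. The medians were -0.06, -0.10 and -0.06. Over the other settings they lay between -0.11 and 0.00 for sodium, between -0.13 and -0.07 for potassium and HCN and between -0.15 and -0.03 for calcium channels. Naive arrays were lower than sham for all 3 lists, since the medians of sham minus naive were 0.20, 0.21 and 0.19. Scn9a, the sodium channel NaV1.7 of nociceptors, read 14.66, 14.71 and 14.68 in DMM against 14.76, 14.89 and 14.58 in sham ganglia, and the 95% interval of its difference ran from -0.25 to 0.13.

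Of 28 TRP, acid, ATP and mechanical sensor genes, 9 were higher and 0 had an unadjusted p under 0.05. Trpv1, the capsaicin and heat receptor, differed by -0.17 (95% interval -0.73 to 0.38) and Piezo2, the touch and proprioception channel, by -0.09 (95% interval -0.31 to 0.14). Of 14 nociceptor peptide genes, 5 were higher and 0 had an unadjusted p under 0.05. Tac1, which encodes substance P, differed by -0.11 (95% interval -0.43 to 0.21). The intervals of Scn9a, Piezo2 and Tac1 lay within 0.5 of 0, and that of Trpv1 did not.

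The nerve injury program showed no common difference but wide scatter. Of 23 genes tested, 7 were higher and 16 lower, 0 at an unadjusted p under 0.05, with a median of -0.05. Atf3, the transcription factor of injured sensory neurons, read 7.68, 9.23 and 7.19 on DMM arrays 1, 2 and 3, against 8.51, 7.58 and 7.86 on the sham arrays, and 9.20, 8.69 and 9.60 on the naive arrays. DMM array 2 stood alone among the DMM arrays, and the 95% interval of the difference ran from -0.95 to 1.06. The list mean showed the same array, at 8.49, 9.28 and 8.21 in DMM against 9.08, 8.52 and 8.58 in sham ganglia. The neuropeptide gene Nts, at 11.49, 12.80 and 9.91 in DMM against 12.17, 11.88 and 11.73 in sham ganglia, scattered in the same way. Without DMM array 2 the median was -0.23 and without DMM array 3 it was 0.09.

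Of 16 pain and neuroimmune genes, 11 were tested and 1, Ccr2, had an unadjusted p under 0.05, against 3.12% of all genes tested. Ccl2, the chemokine that binds its receptor, read 6.46, 6.78 and 6.40 in DMM against 6.40, 6.51 and 6.31 in sham ganglia, a difference of 0.14 (95% interval -0.27 to 0.55). Tlr4, the endotoxin and alarmin receptor, differed by 0.12 (95% interval -0.15 to 0.39), Csf1, which injured neurons use to call microglia, by 0.09 (95% interval -0.28 to 0.45), and Bdnf, a neurotrophin of sensory neurons, by -0.09 (95% interval -0.50 to 0.31). All 4 overlapped between the groups.

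Glial lists had medians of -0.06 for satellite glia, -0.07 for myelinating and -0.09 for non-myelinating Schwann cells. Of 12 satellite glia genes tested, 1 had an unadjusted p under 0.05, against 3.12% of all genes tested. The count was 0 without DMM array 1 or sham array 3. The gene was Fabp7, a lipid carrier of these cells. It read 17.84, 17.70 and 17.77 in DMM, against 17.59, 17.47 and 17.37 in sham and 17.46, 17.42 and 17.66 in naive ganglia. The DMM arrays lay above all others, by 0.29 ± 0.11 over sham (limma adjusted p = 0.986).

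Of 16 cytosolic ribosomal protein genes in the list, 15 were higher in DMM and 5 had an unadjusted p under 0.05, against 3.12% of all genes tested, with a median of 0.10. The count was 1 without sham array 2, without sham array 3 and with the 6 arrays alone, and 3 without any 1 of the DMM arrays. Rps7, which is a small subunit protein, lay outside that list and was named by its p, at 13.36, 13.39 and 13.48 in DMM against 13.19, 13.15 and 13.11 in sham ganglia, or 0.26 ± 0.07. Naive arrays stood at 13.35, 13.44 and 13.30, at the DMM level. Hspa5, the chaperone BiP of the endoplasmic reticulum, differed by 0.34 ± 0.10. Ppp1r3c, which directs a phosphatase to glycogen, differed by 0.73 ± 0.30, and Itpripl1 by 0.27 ± 0.07. Ighv9-4, an immunoglobulin variable segment read around the negative controls, differed by 0.68 ± 0.30.

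The rule also named genes lower in DMM that lie outside the clock. Slco1a4, an organic anion transporter of vessel walls, read 8.93, 8.89 and 8.78 in DMM against 9.32, 9.01 and 9.73 in sham ganglia, a difference of -0.49 ± 0.17. Cpeb4, which controls translation of stored mRNAs, read 11.53, 11.50 and 11.30 in DMM against 11.69, 11.87 and 11.72 in sham ganglia, a difference of -0.31 ± 0.09 (limma adjusted p = 0.972). Both showed no overlap. Pabpc4, a poly(A)-binding protein, differed by -0.21 ± 0.07, the phosphatase gene Bpnt2 by -0.19 ± 0.05, the lymphatic growth factor gene Vegfd by -0.25 ± 0.07, Samd8, an enzyme of sphingolipid synthesis, by -0.29 ± 0.09 and Mzt2, a centrosomal protein, by -0.28 ± 0.09. The protocadherin genes Pcdhb4 and Pcdhb2, of a cluster that gives neurons their surface identity, differed by -0.44 ± 0.15 and -0.41 ± 0.18. The ciliary transport gene Ttc30b, at -0.46 ± 0.15, the homeobox gene Dlx3, at -0.28 ± 0.08, the methyltransferase gene Eef1akmt3, at -0.25 ± 0.07, and the glutamate receptor gene Grm3, at -0.29 ± 0.10, lay between 4.49 and 5.49 on these 6 arrays, around the negative controls. Catsperz, known from sperm, differed by -0.44 ± 0.17.

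**Figure D4:**
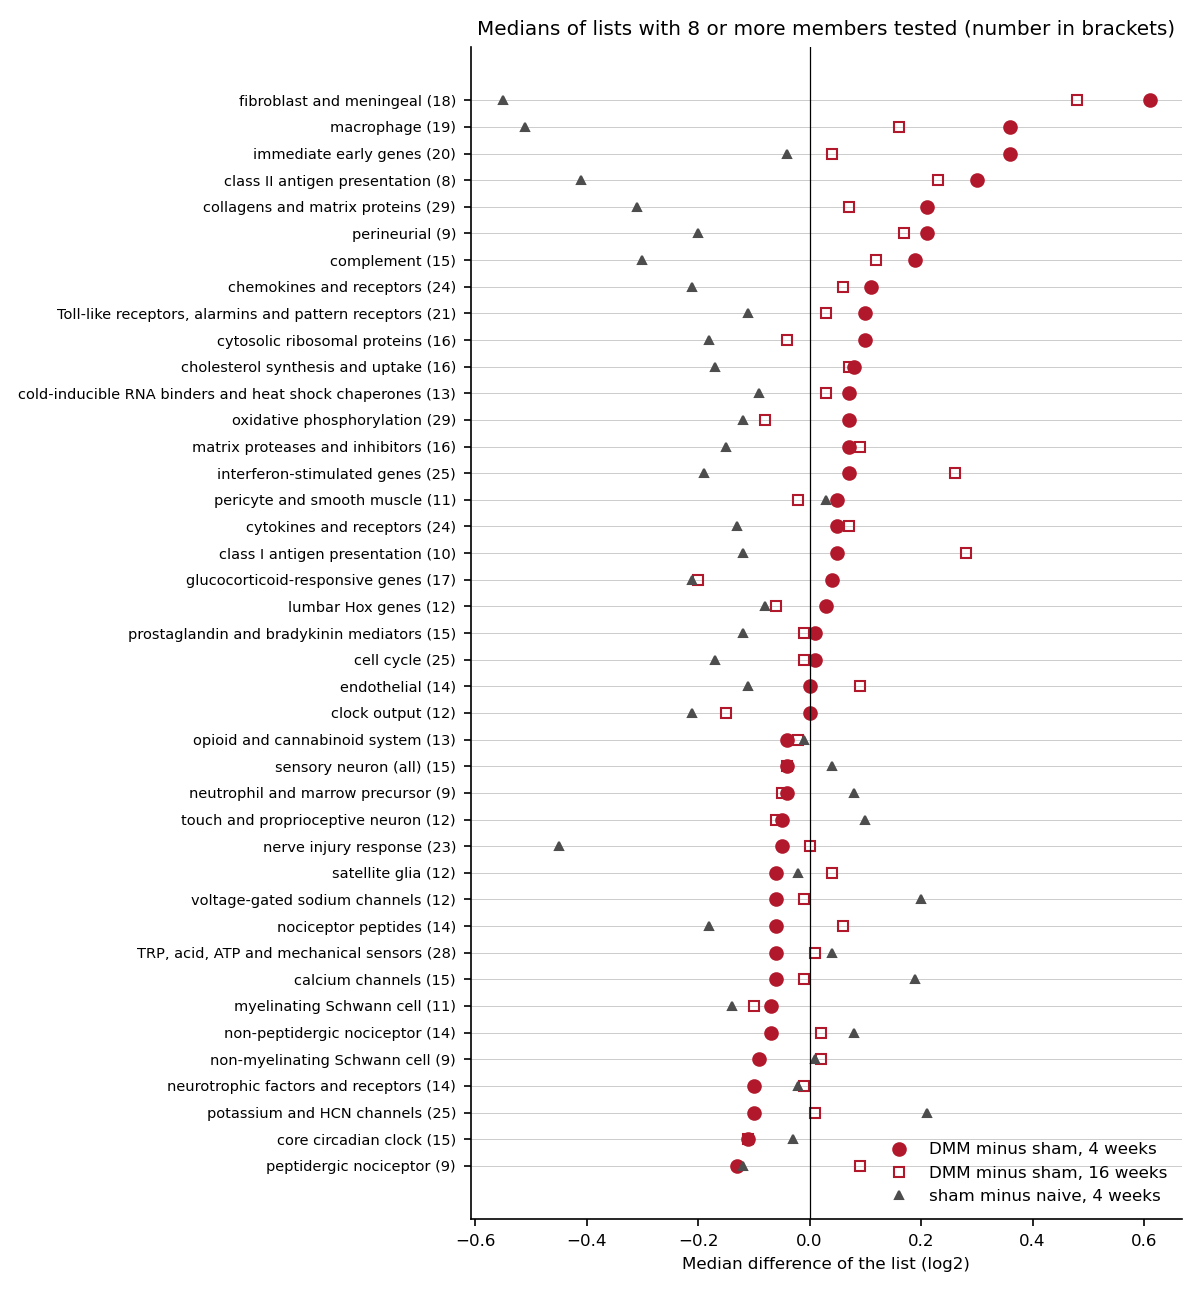
Median difference (log2, x axis) of each gene list with 8 or more members tested, for DMM minus sham at 4 weeks (filled circles), DMM minus sham at 16 weeks (open squares) and sham minus naive at 4 weeks (triangles). Fibroblast and meningeal, macrophage and immediate early genes are at the top, at 0.61, 0.36 and 0.36, and channel and neuron lists lie slightly below 0.

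The arrays taken 16 weeks after surgery share no array with those at 4 weeks and give a second measurement of each difference. Across all genes they were nearly unrelated. The 4-week and 16-week differences had the same sign in 10102 genes (49.9%) and in 456 of the 949 genes with an unadjusted p under 0.05 at 4 weeks (48.1%), and the correlation across genes, which are not independent, was 0.0635. Clock genes kept their direction. Arntl differed by 0.91 at 16 weeks (limma adjusted p = 0.00646). Dbp differed by -1.18, Nr1d1 by -1.01 and Per3 by -0.49, close to their 4-week values, but these did not pass at 16 weeks (limma adjusted p = 0.285, 0.601 and 0.697). The differences between the 4-week and 16-week effects of Arntl and Dbp were -0.19 ± 0.17 and 0.15 ± 0.31 (limma adjusted p = 0.95 and 0.984). Fabp7 differed by 0.35 at 16 weeks (limma adjusted p = 0.668).

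Immediate early genes were near 0 at 16 weeks. Egr1 differed by 0.09 at 16 weeks, and its 4-week effect exceeded that by 1.01 ± 0.31 (limma adjusted p = 0.732). The list's median was 0.36 at 4 weeks and 0.04 at 16 weeks, and 5 of its 20 members had an unadjusted p under 0.05 for the difference of effects, against 5.89% of all genes tested. No gene passed an adjusted p of 0.05 in limma for that difference, and 1193 had an unadjusted p under 0.05. Without DMM array 3 at 4 weeks, which held the lowest Egr1 value of the DMM arrays, Egr1 passed (limma adjusted p = 0.00545). The smallest adjusted p was 0.0636, for Gm25835, a small nucleolar RNA named after its values were seen, which read 10.70, 10.49 and 10.66 in DMM against 10.13, 10.13 and 10.29 in sham ganglia at 4 weeks and differed by -0.43 at 16 weeks.

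Other groups varied. Macrophage markers had a median of 0.36 at 4 weeks and 0.16 at 16 weeks, with 16 of 19 higher at 16 weeks, and 0 of the 19 had an unadjusted p under 0.05 for the difference. Class II genes had 0.30 and 0.23, and fibroblast and meningeal markers 0.61 and 0.48. Collagen and matrix genes had 0.21 and 0.07, with Lum at -0.09 and Dcn at -0.02 at 16 weeks. Class I antigen presentation and interferon-stimulated genes had larger medians at 16 weeks (0.28 and 0.26) than at 4 weeks (0.05 and 0.07). Of these lists, 0 of 10 and 1 of 25 genes had an unadjusted p under 0.05 for the difference of effects, against 5.89% of all genes tested. Ribosomal protein genes had a median of 0.10 at 4 weeks and -0.04 at 16 weeks, where 6 were higher and 10 lower, and 4 of 16 had an unadjusted p under 0.05 for the difference of effects. Oxidative phosphorylation genes had 0.07 and -0.08, with 6 of 29, against 5.89% of all genes tested.

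**Figure D5:**
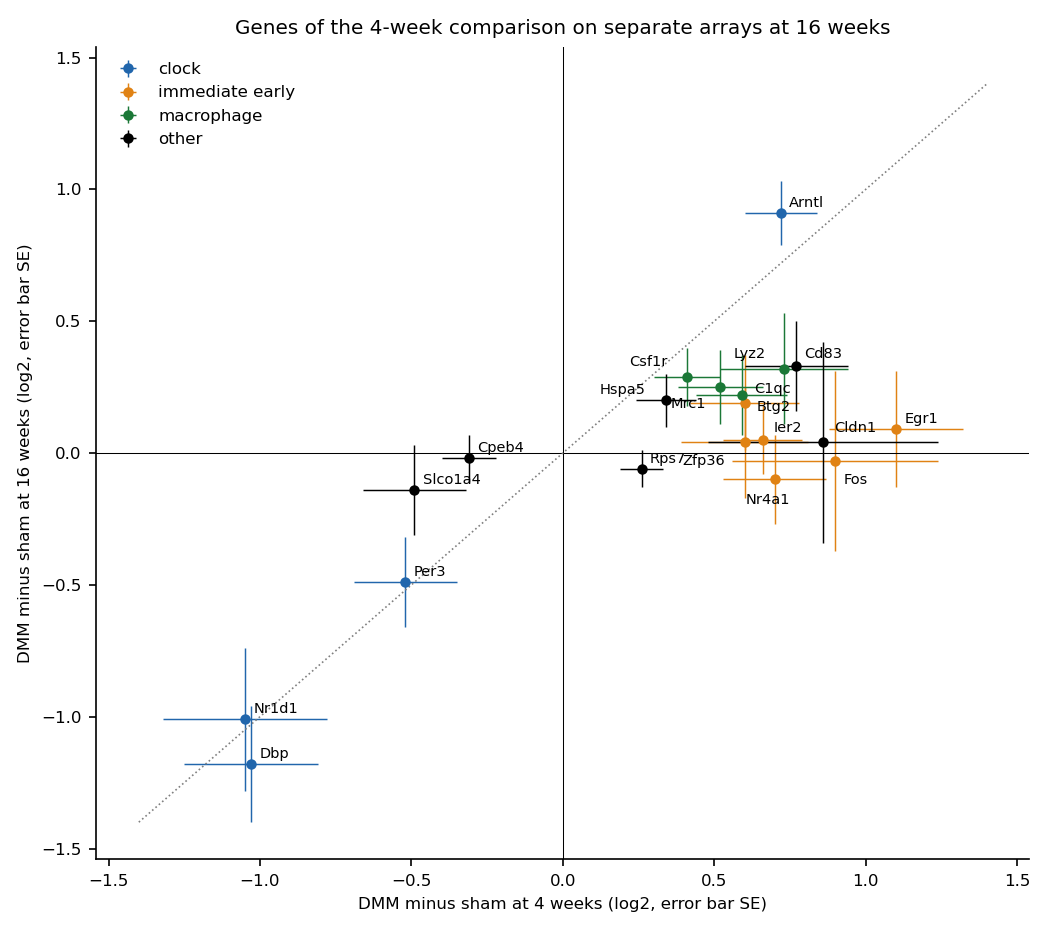
DMM minus sham at 4 weeks (x axis, log2) against DMM minus sham at 16 weeks (y axis, log2) for named genes, with standard errors as bars and a dotted line where both are equal (3 arrays a group). Clock genes lie near the line, immediate early genes lie near 0 on the y axis, and macrophage genes lie below the line.

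The genes most like Arntl over all 25 arrays, after group means were removed, were Ercc5 with a Pearson correlation of 0.833, Nudt9 with 0.787, Plat with 0.766, and Zfp217 and Parp3 with 0.748 each. At the other end stood Maml2 with -0.721, Vps33a with -0.667, Cramp1l with -0.66, Nelfa with -0.639 and Matn1 with -0.631. These are the extremes of the genes tested, with predicted genes, clones, pseudogenes and receptors of smell left out. The arrays share a platform and a scale. The correlations describe how arrays of a group differ from each other and not DMM against sham.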

How the data were processed

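Deposited values are log2 intensities, 1 per probe set and array, and the log2 scale was read from the deposited values. Labelling was with biotin by the manufacturer's standard protocol, per the labels. How the authors summarised and normalized the arrays is not stated in the sources used here. Of 65956 transcript probe sets, 30604 carried exactly 1 gene symbol, 827 of which were updated by Entrez identifier, and those with several (2146) or none (33206) were left out. The brightest probe set stood for each of 30142 genes, and 20260 had a mean above the 40th percentile.

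limma 3.58.1 under R 4.3.3 fitted all 25 arrays, with a mean for each of 9 groups, so that the groups share 1 spread per gene (16 residual and 3.28 prior degrees of freedom). The lone sham array at 8 weeks is assumed to vary like the others. Tests were two-sided, with Benjamini-Hochberg adjustment over 20260 genes. A 95% interval reached 0.203 to each side at the median spread, and the number of arrays limits precision. As the labels name no animals, p-values measure only the spread between samples. On simulated data for this comparison (20260 genes), 64 of 100 genes shifted by 0.5 and 97 of 100 shifted by 1 were recovered, with 13 unshifted genes called. Those data were independent normal draws with equal spread on every array, and the shifted genes were tested together. The real arrays were uneven, with array weights from 0.602 to 1.8 among the DMM arrays at 4 weeks. The simulation therefore does not give the share of real differences that would be recovered.

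The 49 gene lists held 904 entries, of which 702 were tested. Members and lists were chosen with earlier results of these data known. Named genes are the 12 of smallest p in each direction, up to 8 in each direction of largest difference among those with no overlap and an unadjusted p under 0.05, up to 6 of smallest p and the brightest of each list described, and 16 pain genes. Predicted genes, clones and receptors of smell were counted and not named, except where stated. Other list members in the text, such as those that differed little, were chosen after their values were seen. Alternatives were the filter, the normalization, the probe set rule, the arrays fitted, the prior, array weights, a replicate block and each array of the comparison left out.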

Additional observations from a re-analysis of the deposited data

How the results depend on the processing

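The count of genes past an adjusted p of 0.05 was 0 in 15 of the 18 alternative settings. Array weights gave 7: Arntl (adjusted p = 0.022), Egr1 (0.0178), Dbp, Nr4a1 and the predicted genes or receptors Gm11942, Gm12803 and Olfr1033. Leaving out 1 array at a time gave 0 to 2, namely Gm12803 without DMM replicate 2 and Egr1 and Nr4a1 without DMM replicate 3. The count at an unadjusted p under 0.05 then ran between 637 and 1143, and the share of higher genes fell to 56.2% without DMM replicate 1 and to 54.4% without sham replicate 3. With the 6 compared arrays alone it was 1218 genes, 74.7% of them higher. For the difference between the 4-week and 16-week effects, 1 gene passed with the 60th percentile filter, with the negative control filter, with arrays centred on their medians and with array weights, each time Gm25835, and leaving out 1 array gave 0 to 1. Arntl, Dbp, Nr1d1, Egr1 and Nr4a1 kept their sign in all 18 settings, while the median of the nerve injury list took either sign. The adjusted p of these genes was less steady. That of Arntl in limma lay between 0.022 and 0.775 over these settings. Those of Dbp, Nr1d1, Egr1 and Nr4a1 rose above 0.775 in at least 1 setting. Equal replicate numbers were not treated as pairs in the main fit. The deviations of same-numbered DMM and sham arrays correlated at -0.0745, 0.197 and 0.0658, and those of differently numbered arrays between -0.21 and 0.142. So few values cannot decide whether the arrays were paired. The fit with the replicate number as a block gave 0 genes past the threshold and 902 at an unadjusted p under 0.05. In genes near the negative controls, small differences are limited by signal over background.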
